A study of Mus musculus with 2 samples.

Results

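Cycling T and NK cells were the lymphocytes of orthotopic Hepa1-6 liver tumours that carried RNA of the division genes Mki67 and Top2a when the tumours were dissociated. They were chosen by measured values. A cell barcode belonged to the class if it held at least 200 genes, at most 10% of its UMIs (unique molecular identifiers, 1 per captured RNA molecule) from mitochondrial genes, at least 1 UMI each of Mki67 and Top2a, at least 2 of 9 T and NK cell genes (Cd3d, Cd3e, Cd3g, Trac, Trbc2, Cd247, Ncr1, Klre1 and Nkg7) and at most 1 UMI of the myeloid gene Lyz2. This gave 206 members, of which 128 were among the 10014 kept barcodes of the anti-PD-1 library and 78 were among the 9566 kept barcodes of the isotype library. The anti-PD-1 group was C57/BL6 wild type mice with Hepa1-6 tumours, a mouse hepatoma line placed in the liver, given an antibody against the inhibitory receptor PD-1. The isotype group was the same strain and tumour given IgG control antibody. In both groups CD45-positive cells were enriched on magnetic beads and sorted for CD45 and for exclusion of the dead-cell dye 7-AAD, so all cells measured were leukocytes by the sort. Each group was 1 library (10x Genomics 3′ chemistry, version 2), and the sources used here do not say how many mice went into each. No difference between the groups therefore has a replicate check. Intervals below are 95% intervals that cover counting error only.

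T cells that meet antigen leave quiescence, copy their DNA in S phase and divide within hours to days, and killing, cytokine and receptor genes are set during these divisions. MKI67 coats the chromosomes of dividing cells, and TOP2A untangles DNA during replication and mitosis. PD-1, encoded by Pdcd1, is an inhibitory receptor that appears on T cells after antigen contact and restrains signalling through the T cell receptor. In mouse tumours, proliferating CD8 T cells are one of the populations known to expand after PD-1 blockade.

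The libraries held 72148493 UMIs in 10149 barcodes with anti-PD-1 and 67520433 UMIs in 9683 barcodes with isotype antibody. Members were deep: the median was 17091 UMIs in anti-PD-1 members (range 1794 to 53830) and 14361.5 UMIs in isotype members (range 2299 to 57178). T and NK cells with neither Mki67 nor Top2a, called non-cycling here, numbered 409 with anti-PD-1 and 381 with isotype antibody and had medians of 5997 UMIs with anti-PD-1 and 5298 UMIs with isotype antibody. The libraries shared 140 barcode sequences, and 0 members of one library shared a barcode with a member of the other.

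The label was checked on genes outside the rule. At least 3 of 10 further T cell genes (such as Cd2, Lck and Thy1) were found in 127 of 128 anti-PD-1 members and 77 of 78 isotype members. At least 3 of 7 further division genes (such as Birc5, Stmn1 and Rrm2) were found in 120 of 128 anti-PD-1 members and 69 of 78 isotype members. NK cells were defined here by Ncr1, Klre1 or Klrb1c with at most 1 CD3 UMI and no Trac, Cd4 or Cd8 RNA. They were 3 anti-PD-1 members and 5 isotype members, and all of them also held at least 3 of the further T cell genes. Those genes therefore do not separate T from NK cells. At least 3 of 5 further NK genes (such as Klra8 and Eomes) were found in 11 of 128 anti-PD-1 members and 12 of 78 isotype members. Of these, 5 anti-PD-1 and 4 isotype members met no lineage definition. By the lineage calls given below, most members were T cells. Inside the thresholds, 23 anti-PD-1 members and 21 isotype members had exactly 1 UMI of Mki67 or of Top2a, and 2 anti-PD-1 members and 0 isotype members rested on exactly 2 of the 9 T and NK genes. Just outside, 108 T and NK cells of the anti-PD-1 library and 118 of the isotype library had RNA of 1 of the 2 division genes. With 1 T or NK gene there were a further 6 dividing cells with anti-PD-1 and 4 with isotype antibody, and 26 dividing cells with anti-PD-1 and 11 with isotype antibody had at least 2 T or NK genes but more than 1 UMI of Lyz2.

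RNA of other cell types was present in some members. In the anti-PD-1 library 10 of 128 members (7.81%), and in the isotype library 5 of 78 members (6.41%), held at least 3 markers of 1 other cell type. Of these, 5 anti-PD-1 members and 2 isotype members also had a scrublet doublet score above 0.25, a level that 303 kept barcodes with anti-PD-1 and 288 with isotype antibody passed. Summed over members, 7 dendritic cell markers reached 1110 CPM (UMIs per 1000000 UMIs of the class) with anti-PD-1 and 365 CPM with isotype antibody, and 5 neutrophil markers reached 398 CPM with anti-PD-1 and 214 CPM with isotype antibody. All kept barcodes together stood far above this, at 14300 CPM with anti-PD-1 and 14500 CPM with isotype antibody for the dendritic list and 8580 CPM with anti-PD-1 and 12800 CPM with isotype antibody for the neutrophil list. Of the neutrophil markers only Ly6g was at 0 in members of both libraries. Of 8 macrophage markers, 2 were at 0 with anti-PD-1 and 4 with isotype antibody. That list reached 33.8 CPM with anti-PD-1 and 21.1 CPM with isotype antibody, with a UMI in 33 anti-PD-1 and 18 isotype members. The 6 B and plasma cell markers reached 83.5 CPM with anti-PD-1 (63 members) and 65.7 CPM with isotype antibody (26 members). All 4 haemoglobin genes and both mast cell markers were at 0 in members of both libraries. Values without the mixed members, chosen after these values were seen, are given beside several results.

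Division genes were high in the members of both libraries. All 33 genes of a DNA replication and S phase list and all 35 genes of a G2 and mitosis list were more than 1.5-fold higher in members than in non-cycling cells of their own library, against a background of 20.9% of 10596 measured genes with anti-PD-1 and 21.4% of 9983 with isotype antibody. Genes more than 1.5-fold lower made up 20.8% with anti-PD-1 and 20.7% with isotype antibody. Because Mki67 and Top2a chose the cells, these ratios describe the choice and are no finding. Birc5, a mitotic survival factor, stood at 346 CPM in members and 4.80 CPM in non-cycling cells with anti-PD-1, and at 349 CPM in members and 5.68 CPM in non-cycling cells with isotype antibody. Cdk1, the kinase that drives entry into mitosis, stood at 161 CPM in members and 3.43 CPM in non-cycling cells with anti-PD-1, and at 122 CPM in members and 3.93 CPM in non-cycling cells with isotype antibody. Cdc20, which activates the ligase that ends metaphase, stood at 78.3 CPM in members and 1.37 CPM in non-cycling cells with anti-PD-1 and at 76.2 CPM in members and 3.06 CPM in non-cycling cells with isotype antibody. Mcm5 and Mcm6 encode subunits of the helicase that opens DNA for replication. Mcm5 stood at 235 CPM in members and 29.1 CPM in non-cycling cells with anti-PD-1, and at 207 CPM in members and 17 CPM in non-cycling cells with isotype antibody. Mcm6 stood at 364 CPM in members and 111 CPM in non-cycling cells with anti-PD-1 and at 300 CPM in members and 77.8 CPM in non-cycling cells with isotype antibody.

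The promoters of these 4 genes carry the elements for which S phase and mitotic genes are known, and they are shown because the members were high in both groups of genes. They are stretches of 100 bases before the RefSeq transcription start (build GRCm38.p6), read 5′ to 3′ along the strand of the gene. Capitals mark a CHR element in Cdk1 and Cdc20 and an E2F site in Mcm5 and Mcm6.
Cdk1 promoter, chr10:69352958-69353057, minus strand: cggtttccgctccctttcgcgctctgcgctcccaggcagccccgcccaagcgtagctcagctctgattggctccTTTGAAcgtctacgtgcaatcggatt
Cdc20 promoter, chr4:118437353-118437452, minus strand: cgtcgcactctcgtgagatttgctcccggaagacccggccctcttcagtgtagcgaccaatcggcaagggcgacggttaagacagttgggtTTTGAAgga
Mcm5 promoter, chr8:75109288-75109387, plus strand: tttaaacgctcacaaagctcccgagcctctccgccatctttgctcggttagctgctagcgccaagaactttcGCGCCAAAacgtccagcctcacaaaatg
Mcm6 promoter, chr1:128359725-128359824, minus strand: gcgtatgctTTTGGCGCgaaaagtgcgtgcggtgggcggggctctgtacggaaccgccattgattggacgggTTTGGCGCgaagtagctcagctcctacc
A CHR element was searched as TTTGAA or TTCGAA and an E2F site as TTTCCCGC or TTTGGCGC, on both strands, in the 250 bases before the start, and these motifs do not overlap each other in the stretches shown. An E2F site was found in 7 of the 29 S phase genes with a promoter in the table (24.1%) and in 0 of the 29 G2 and mitosis genes, against 1.51% of 27025 genes. A CHR element was found in 10 of 29 G2 and mitosis genes (34.5%) and 4 of 29 S phase genes (13.8%), against 19.6% of all genes. The CCAAT box stood in 22 of 29 G2 and mitosis genes (75.9%) and 17 of 29 S phase genes (58.6%), against 37.5% of all genes. These matches describe letters in a window and do not show that a factor binds there.

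Members spread from cells rich in S phase RNA to cells rich in G2 and mitosis RNA. The S phase list took a median of 0.593% of a cell's UMIs in anti-PD-1 members and 0.580% in isotype members, and the G2 and mitosis list took 0.353% in anti-PD-1 members and 0.361% in isotype members. In non-cycling cells the S phase list took 0.0686% with anti-PD-1 and 0.0644% with isotype antibody, and the G2 and mitosis list took 0.0211% with anti-PD-1 and 0.0227% with isotype antibody. Of the anti-PD-1 members, 80 of 128 (62.5%) had more S phase than G2 and mitosis UMIs, as did 54 of 78 isotype members (69.2%). In 23 anti-PD-1 members (18.0%) and 16 isotype members (20.5%) the G2 and mitosis UMIs were more than 2 times the S phase UMIs. The differences of −6.73 points (−19.3 to 6.77) and −2.54 points (−14.3 to 8.08) had intervals that include 0, so no difference in phase was detectable at this number of cells. The rank correlation of the 2 lists across cells was −0.24 over 128 anti-PD-1 members and −0.10 over 78 isotype members, values that share each cell's total as denominator.

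**Figure D1:**
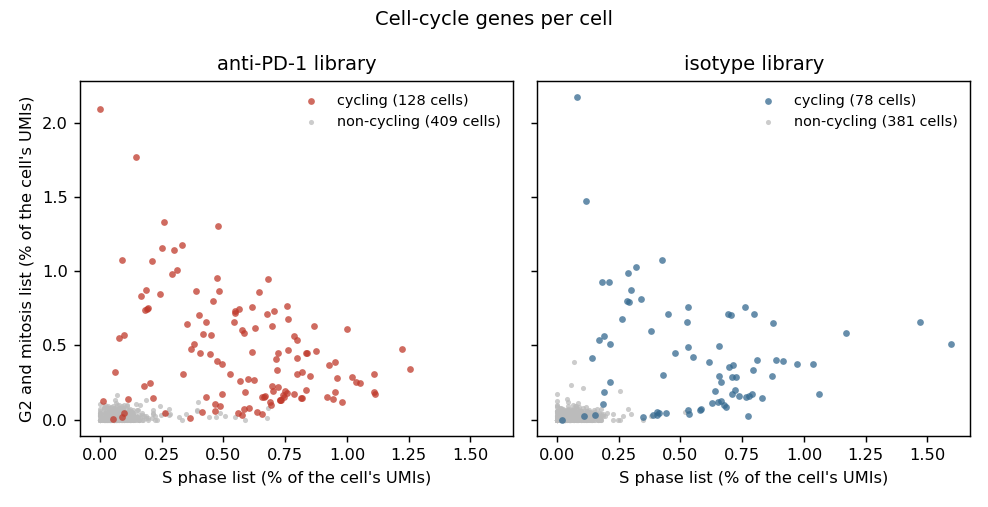
Share of each cell's UMIs (%) taken by the S phase list (x axis) and by the G2 and mitosis list (y axis), 1 point per cell, for the anti-PD-1 library (left) and the isotype library (right). Coloured points are cycling T and NK cells (128 anti-PD-1, 78 isotype) and grey points are non-cycling cells (409 anti-PD-1, 381 isotype), which lie near the origin, while members spread along both axes; the rank correlation of the lists was −0.24 in anti-PD-1 members and −0.10 in isotype members.

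Cycling T and NK cells were a larger part of the anti-PD-1 library. They made up 1.28% of kept barcodes with anti-PD-1 (95% interval 1.07 to 1.52%) and 0.815% with isotype antibody (0.645 to 1.02%), a difference of 0.463 percentage points (0.178 to 0.752). All T and NK cells by the same genes were 645 barcodes (6.44%) with anti-PD-1 and 577 barcodes (6.03%) with isotype antibody. Within these, members were 19.8% with anti-PD-1 (16.8 to 23.1%) and 13.5% with isotype antibody (10.8 to 16.6%). Depth bears directly on this share, since a shallower cell shows 1 UMI of both genes less often. After every cell was thinned to 2000 UMIs, which left out 11 anti-PD-1 and 16 isotype T and NK cells, both genes were seen in 6.31% of T and NK cells with anti-PD-1 and 5.17% with isotype antibody, a difference of 1.14 points with an interval of −1.57 to 3.8 that includes 0. Either gene alone or both were seen in 36.6% of T and NK cells with anti-PD-1 and 34% with isotype antibody, and after thinning in 20.2% with anti-PD-1 and 18.4% with isotype antibody. Neutrophils showed a far lower level. Both genes were seen in 0.472% of 1272 neutrophils of the anti-PD-1 library and 0.399% of 1253 neutrophils of the isotype library. Their median depths were 2371.5 UMIs with anti-PD-1 and 2236 UMIs with isotype antibody. At least 3 of the 7 further division genes were found in 8 neutrophils with anti-PD-1 and 8 with isotype antibody. Whether these UMIs came from free RNA or from doublets was not tested.

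The lineage make-up of the dividing cells differed more than their number did. CD8 T cells (Cd8a or Cd8b1, no Cd4 or Foxp3, with a T cell gene) were 56 of 128 anti-PD-1 members (43.8%, 35.0 to 52.8%) and 13 of 78 isotype members (16.7%, 9.18 to 26.8%), a difference of 27.1 points (14.3 to 38.0). Conventional CD4 T cells (Cd4, no Foxp3) were 35 anti-PD-1 members (27.3%) and 29 isotype members (37.2%), with a difference of −9.84 points (−22.9 to 3.07). Thus dividing CD8 cells outnumbered dividing conventional CD4 cells with anti-PD-1, and the order was the other way round with isotype antibody. Cells with NK genes and little CD3 were 3 anti-PD-1 members (2.34%) and 5 isotype members (6.41%), and gamma-delta T cells were 1 anti-PD-1 member and 3 isotype members. Another 11 anti-PD-1 members (8.59%) and 11 isotype members (14.1%) met none of the definitions.

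The CD8 difference was also present at equal depth. With lineages called from 2000 UMIs per cell, CD8 cells were 44.1% of anti-PD-1 members and 12.8% of isotype members. That call needs a cell without Cd4 UMIs, and thinning removed many of those. Members with Cd4 went from 42.2% to 11.8% with anti-PD-1 and from 56.4% to 20.5% with isotype antibody. After thinning, a Cd8a UMI was found in 33.1% of anti-PD-1 members and 10.3% of isotype members. At full depth it was found in 45.3% of anti-PD-1 members and 15.4% of isotype members. In neutrophils, cells that should lack the gene, the full-depth shares were 0.472% with anti-PD-1 and 0.239% with isotype antibody. CD8 cells were also the larger share of non-cycling cells with anti-PD-1, at 23.5% there and 11.3% with isotype antibody. Among all CD8 cells, 30.4% were cycling with anti-PD-1 (56 of 184) and 18.3% with isotype antibody (13 of 71), a difference of 12.1 points whose interval of −0.098 to 22.2 includes 0. After thinning, either division gene was found in 28.0% of CD8 cells with anti-PD-1 and 24.3% with isotype antibody. The groups therefore stood apart in how many CD8 cells there were, whereas a difference in the dividing fraction of CD8 cells was not detectable at this number of cells.

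Regulatory T cells, marked by the transcription factor Foxp3, gave the opposite order, but with a caveat in the calls. By the definition used (Foxp3 and no Cd8a or Cd8b1) they were 7 anti-PD-1 members (5.47%) and 14 isotype members (17.9%), a difference of −12.5 points (−22.8 to −3.69). However, 15 anti-PD-1 members and 3 isotype members held both Cd4 and Cd8 RNA. Of these, 9 anti-PD-1 and 2 isotype members also held Foxp3, with 1 to 5 UMIs of Cd8b1 in the anti-PD-1 cells and none of Cd8a in either library. Counted by a Foxp3 UMI alone, 17 of 128 anti-PD-1 members (13.3%) and 17 of 78 isotype members (21.8%) were positive, a difference of −8.51 points whose interval of −19.9 to 1.88 includes 0. The lower share of dividing regulatory cells with anti-PD-1 thus depended on how cells with a few UMIs of Cd8b1 were counted. Whether those UMIs came from free RNA was not tested.

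**Figure D2:**
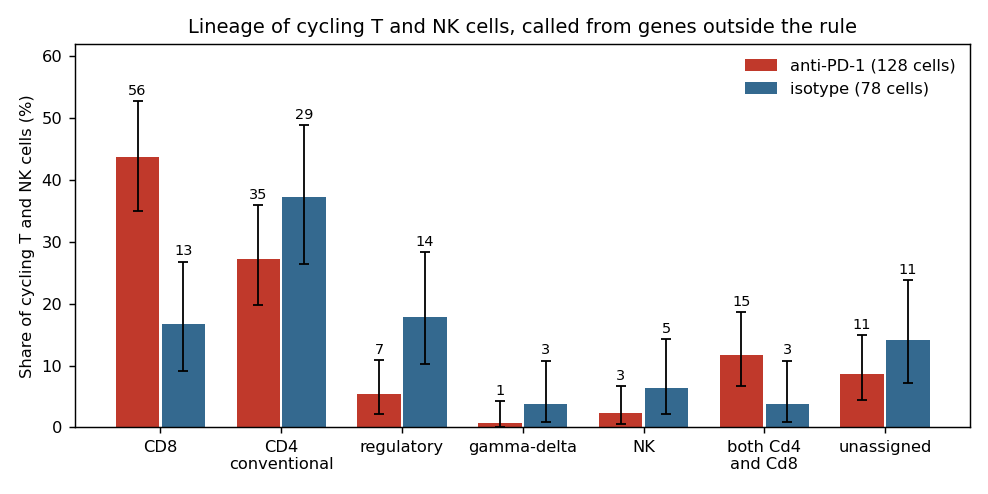
Share of cycling T and NK cells (%) in each lineage, for anti-PD-1 (red, 128 cells) and isotype antibody (blue, 78 cells). Error bars are exact 95% intervals for counting error and the numbers above the bars are cells; CD8 cells were 43.8% with anti-PD-1 and 16.7% with isotype antibody, and those intervals do not overlap.

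Set against the non-cycling T and NK cells of the same library, members carried relatively more RNA for nucleotide synthesis and relatively less for naive and memory genes, interferon-stimulated genes and cytokine receptors. Nucleotide and one-carbon genes supply the bases for DNA. Of 20, 19 were more than 1.5-fold higher in members with anti-PD-1 and 18 with isotype antibody. The medians were 1.35 with anti-PD-1 and 1.15 with isotype antibody on the log2 scale, where all measured genes had medians of −0.01 with anti-PD-1 and 0.00 with isotype antibody. Shmt2, which charges the one-carbon pool in mitochondria, stood at 135 CPM in members and 38.0 CPM in non-cycling cells with anti-PD-1, and at 77.9 CPM in members and 36.7 CPM in non-cycling cells with isotype antibody. Impdh2, the rate-limiting enzyme of guanine nucleotide synthesis, was higher in members by 1.67 with anti-PD-1 and 1.18 with isotype antibody on the log2 scale. Glycolysis genes had medians near 0, at 0.122 with anti-PD-1 and 0.145 with isotype antibody.

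The naive and memory list, with the lymph node and survival receptors of resting T cells, had 8 of 13 genes more than 1.5-fold lower and 1 higher in anti-PD-1 members, and 9 of 13 lower and 0 higher in isotype members (medians −1.03 with anti-PD-1 and −1.08 with isotype antibody). Il7r, the receptor for the survival cytokine IL-7 (chr15:9505788-9530176), was among the lowest. It stood at 14.7 CPM in members and 145 CPM in non-cycling cells with anti-PD-1, and at 30 CPM in members and 194 CPM in non-cycling cells with isotype antibody. Of the type I interferon response list, 19 of 25 genes were more than 1.5-fold lower with anti-PD-1 and 14 of 24 with isotype antibody, and 0 were more than 1.5-fold higher in either (medians −0.99 with anti-PD-1 and −0.79 with isotype antibody). Cytokine receptors had medians of −0.66 with anti-PD-1 and −0.65 with isotype antibody, and inhibitory receptors −0.44 with anti-PD-1 and −0.38 with isotype antibody. Btg1, an antiproliferative gene of quiescent lymphocytes, stood at 528 CPM in members and 1710 CPM in non-cycling cells with anti-PD-1, and at 663 CPM in members and 1950 CPM in non-cycling cells with isotype antibody. Cdkn2c, a CDK inhibitor, went the other way, at 42.4 CPM in members and 10.3 CPM in non-cycling cells with anti-PD-1 and at 30 CPM in members and 14.4 CPM in non-cycling cells with isotype antibody. Gamma-delta genes were the lowest list (medians −3.84 with anti-PD-1 and −3.27 with isotype antibody), beside 1 gamma-delta cell among anti-PD-1 members and 3 among isotype members.

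These are shares of a cell's UMIs, and members held more UMIs per cell. The rule itself favours deep cells as members and shallow cells as non-cycling, since it asks whether 2 genes are seen. Cells with 1 of the 2 genes lay between, at medians of 8972 UMIs with anti-PD-1 and 7780 UMIs with isotype antibody. How much of the difference per cell came from this choice was not tested. Counted as UMIs per cell, 10035 of 10596 measured genes were higher in members than in non-cycling cells with anti-PD-1, and 9431 of 9983 with isotype antibody. On that scale 15 of 16 inhibitory receptor genes with anti-PD-1, and 16 of 16 with isotype antibody, were higher in members, so the direction of that list turns with the scale. Other lists turned as well: per cell, the type I interferon list had 17 of 25 genes higher in members with anti-PD-1 and 16 of 24 with isotype antibody. The naive and memory list had 11 of 13 higher per cell with anti-PD-1 and 10 of 13 with isotype antibody, and cytokine receptors 17 of 18 with anti-PD-1 and 16 of 18 with isotype antibody. The lower values above are therefore lower shares of a cell's UMIs, not fewer UMIs per cell, for most genes of these lists. Pdcd1 averaged 6.12 UMIs per cycling cell and 2.42 per non-cycling cell with anti-PD-1, and 2.90 per cycling cell and 1.36 per non-cycling cell with isotype antibody. Il7r was lower by either measure, at 0.281 UMIs per cycling cell and 1.04 per non-cycling cell with anti-PD-1, and at 0.474 per cycling cell and 1.17 per non-cycling cell with isotype antibody. Btg1 was close on this scale, at 10.1 UMIs per cycling cell and 12.2 per non-cycling cell with anti-PD-1, and at 10.5 per cycling cell and 11.7 per non-cycling cell with isotype antibody.

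Several of these lists lay on the same side of 0 within lineages. In CD8 cells the medians of cycling over non-cycling were −1.39 with anti-PD-1 and −2.32 with isotype antibody for the naive and memory list, −1.72 with anti-PD-1 and −1.63 with isotype antibody for the type I interferon list, and 1.26 with anti-PD-1 and 1.29 with isotype antibody for nucleotide synthesis. In conventional CD4 cells they were −0.84 with anti-PD-1 and −0.71 with isotype antibody for the naive and memory list, and 1.52 with anti-PD-1 and 1.18 with isotype antibody for nucleotide synthesis. All measured genes had medians of 0.070 with anti-PD-1 and 0.154 with isotype antibody in CD8 cells, and of 0.010 with anti-PD-1 and 0.017 with isotype antibody in conventional CD4 cells.

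**Figure D3:**
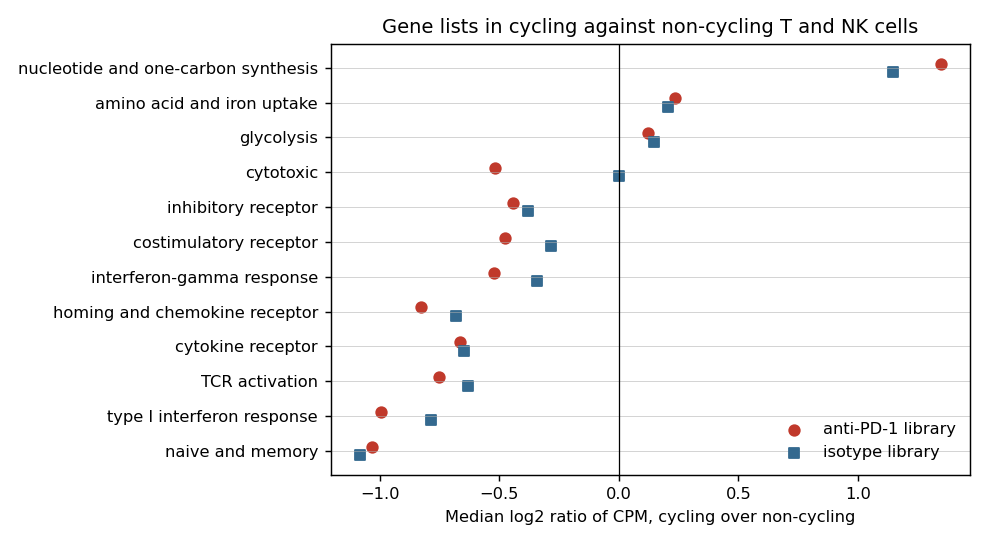
Median log2 ratio of CPM, cycling over non-cycling T and NK cells, for 12 gene lists that do not hold cell-cycle genes (red circles, anti-PD-1 library; blue squares, isotype library). Nucleotide and one-carbon synthesis lies at 1.35 (anti-PD-1) and 1.15 (isotype) and the naive and memory list at −1.03 (anti-PD-1) and −1.08 (isotype), and the libraries lie close to each other for most lists except the cytotoxic one, at −0.52 (anti-PD-1) and −0.00 (isotype).

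Between the groups, dividing cells with anti-PD-1 carried more RNA of several inhibitory receptors, of Gzma, Gzmb and Gzmk and the chemokines Ccl3 and Ccl5. They carried less of Cd40lg, Il7r and NK receptors. CPM ratios are given as log2 of anti-PD-1 over isotype, for genes with at least 10 UMIs over both libraries. Of 9884 such genes, 13.7% were more than 1.5-fold higher, 8.41% were more than 1.5-fold lower and 57.6% were higher by any amount, with a median of 0.065. These differences mix the lineages, and CD8 cells were 43.8% of anti-PD-1 members and 16.7% of isotype members, so values within CD4 and CD8 cells follow. Fewer cells of a type and less RNA per cell cannot be told apart in the summed values.

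Among inhibitory receptors, which lower T cell responses, Pdcd1, Lag3 and Tigit were higher with anti-PD-1. Of 16 genes in the list, 11 (68.8%) were higher, beside 57.6% of all genes, 5 of them more than 1.5-fold, and 3 were more than 1.5-fold lower. The list median was 0.30, and the counting intervals of the middle genes, from −0.28 to 1.08, include 0. Pdcd1 (chr1:94038305-94052553) stood at 319 CPM with anti-PD-1 and 183 CPM with isotype antibody, a log2 ratio of 0.80 (0.59 to 1.02). Pdcd1 encodes the receptor that the antibody binds, and the RNA was counted here, not the protein. Lag3, a receptor for MHC class II (chr6:124904361-124911705), stood at 149 CPM with anti-PD-1 and 76.2 CPM with isotype antibody (0.97, 0.64 to 1.31), and Tigit, a receptor for CD155 (chr16:43648867-43664146), at 227 CPM with anti-PD-1 and 166 CPM with isotype antibody (0.45, 0.22 to 0.69). Ctla4, which competes with CD28 for its ligands, differed little, at 459 CPM with anti-PD-1 and 412 CPM with isotype antibody. A Pdcd1 UMI was found in 76.6% of anti-PD-1 members and 57.7% of isotype members, and a Lag3 UMI in 64.1% of anti-PD-1 members and 43.6% of isotype members. In neutrophils these shares were 0.629% with anti-PD-1 and 0.638% with isotype antibody for Pdcd1, and 0.629% with anti-PD-1 and 0.958% with isotype antibody for Lag3. After thinning, members held Pdcd1 in 37.0% with anti-PD-1 and 25.6% with isotype antibody, and Lag3 in 18.1% with anti-PD-1 and 12.8% with isotype antibody, and both differences had intervals that include 0. Lower genes were Lilrb4a, at 122 CPM with anti-PD-1 and 197 CPM with isotype antibody (−0.69), Nt5e, at 13.4 CPM with anti-PD-1 and 24.3 CPM with isotype antibody (−0.86), and Cd244a, at 8.15 CPM with anti-PD-1 and 23.5 CPM with isotype antibody (−1.53). Non-cycling cells had Pdcd1 at 339 CPM with anti-PD-1 and 226 CPM with isotype antibody and Lag3 at 217 CPM with anti-PD-1 and 138 CPM with isotype antibody, so the higher level with anti-PD-1 was also present outside division.

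The cytotoxic list lay on both sides of 0. Of 18 genes, 10 were higher, 3 of them more than 1.5-fold, and 3 were more than 1.5-fold lower (median 0.15). Gzmk, a granzyme of effector memory CD8 T cells (chr13:113171608-113225908), stood at 315 CPM with anti-PD-1 and 163 CPM with isotype antibody (0.95, 0.72 to 1.18), and a Gzmk UMI was found in 57.8% of anti-PD-1 members and 25.6% of isotype members, or 37.8% of anti-PD-1 members and 14.1% of isotype members after thinning. Gzmb, the main killing granzyme of activated T cells, stood at 1360 CPM with anti-PD-1 and 930 CPM with isotype antibody, and was found in 68.0% of anti-PD-1 members and 50% of isotype members. Gzma stood at 1290 CPM with anti-PD-1 and 860 CPM with isotype antibody. The chemokine Ccl5 stood at 2720 CPM with anti-PD-1 and 1950 CPM with isotype antibody. Ccl4, another chemokine, differed little, with a log2 ratio of 0.081, and of −0.131 without the mixed members. Of 3 cytokine and chemokine genes, Ifng stood at 359 CPM with anti-PD-1 and 505 CPM with isotype antibody, Tnf at 64.0 CPM with anti-PD-1 and 118 CPM with isotype antibody, and the dendritic cell attractant Xcl1 at 542 CPM with anti-PD-1 and 783 CPM with isotype antibody. An Ifng UMI was found in 64.1% of anti-PD-1 members and 65.4% of isotype members, a difference of −1.32 points (−14.2 to 12.2). Gzmc, another granzyme (chr14:56231441-56234656), had the lowest ratio of the list, at 117 CPM with anti-PD-1 and 1760 CPM with isotype antibody. However, 1557 of its 2168 isotype UMIs lay in 1 cell. In the isotype library 1 cell also held 416 of 1147 Gzmb UMIs, and 1 cell held 412 of 1061 Gzma UMIs. With anti-PD-1 these were 206 of 3329 for Gzmb and 550 of 3160 for Gzma. The perforin gene Prf1 had a log2 ratio of −0.254, with 79 of its 145 isotype UMIs in 1 cell. A Prf1 UMI was found in 48.4% of anti-PD-1 members and 26.9% of isotype members. In non-cycling cells Gzmk stood at 157 CPM with anti-PD-1 and 33.7 CPM with isotype antibody, and Gzmb at 1240 CPM with anti-PD-1 and 462 CPM with isotype antibody.

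Over all members, NK receptors and most costimulatory genes were lower. Of 12 costimulatory genes 3 were higher and 4 were more than 1.5-fold lower (median −0.22). Cd40lg, the helper signal of CD4 T cells to B and dendritic cells (chrX:57212143-57224042), stood at 11 CPM with anti-PD-1 and 60.8 CPM with isotype antibody, in 19 cells with anti-PD-1 and 25 with isotype antibody (−2.47, −3.16 to −1.82). Of 18 NK receptor genes 3 were higher and 13 were more than 1.5-fold lower (median −1.08), beside 3 NK cells among anti-PD-1 members and 5 among isotype members. The activating receptor Ncr1 and the receptor Klre1 were in the rule and are left out of those counts. Within lineages these lists were not lower throughout. Costimulatory genes were higher in 6 of 11 in conventional CD4 cells (median 0.007) and in 6 of 10 in CD8 cells (median 0.062). The 6 NK receptor genes measured in conventional CD4 cells were all higher (median 1.43; without the mixed members 3 were measured, all higher), and 3 of 7 were in CD8 cells (median −0.31). Il7r stood at 14.7 CPM with anti-PD-1 and 30 CPM with isotype antibody (−1.03), while the naive and memory list as a whole had a median of −0.07.

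Nucleotide and one-carbon genes were higher in the dividing cells of the anti-PD-1 library, with 18 of 20 higher and 5 of these more than 1.5-fold (median 0.345). Shmt2 stood at 135 CPM with anti-PD-1 and 77.9 CPM with isotype antibody (0.79), and Gart, a purine synthesis enzyme, at 62.8 CPM with anti-PD-1 and 31.6 CPM with isotype antibody (0.99). The replication genes lay near 0: medians were 0.03 for the S phase list and 0.05 for the G2 and mitosis list, with 18 of 33 and 23 of 35 genes higher. Replication histones were lower in 14 of 17 genes (median −0.13), and Hist1h2ap stood at 643 CPM with anti-PD-1 and 945 CPM with isotype antibody. The type I interferon list had 9 of 23 genes higher, 5 more than 1.5-fold, and 7 more than 1.5-fold lower (median −0.23). Without the mixed members 3 were more than 1.5-fold higher and 9 lower (median −0.35). Within conventional CD4 cells 9 of 19 genes were higher (median −0.095), and 3 of 17 without the mixed members (median −0.445). In CD8 cells 10 of 18 were higher (median 0.135), and 11 of 18 without the mixed members (median 0.226). Ifit1 stood at 155 CPM with anti-PD-1 and 318 CPM with isotype antibody and Isg15 at 483 CPM with anti-PD-1 and 728 CPM with isotype antibody, both known antiviral genes induced by interferon. Interferon-gamma response genes were balanced, with 13 of 26 higher.

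**Figure D4:**
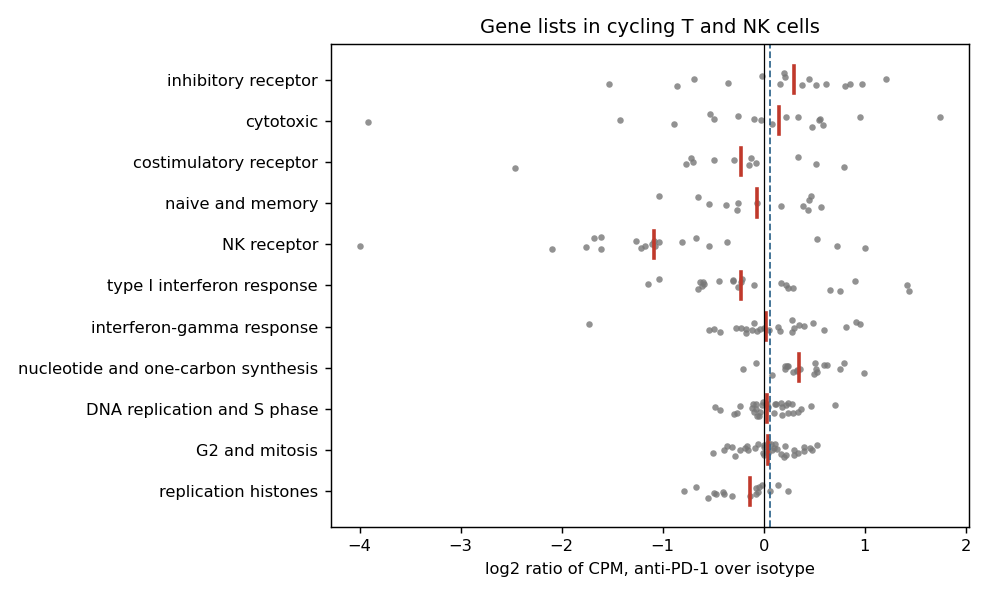
Log2 ratio of CPM, anti-PD-1 over isotype, for each measured gene (grey points) of 11 lists in cycling T and NK cells, with the list median as a red bar and the median of all 9884 genes as a dashed line. Ratios beyond 4 in either direction are drawn at 4 and genes with 0 UMIs in 1 library are not drawn; the inhibitory receptor and nucleotide lists have medians of 0.30 and 0.345, and the NK receptor list −1.08.

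Within conventional CD4 cells (35 with anti-PD-1 and 29 with isotype antibody) the receptor and granzyme differences were present and several were larger. Of 7786 measured genes, 19.6% were more than 1.5-fold higher, 13.3% more than 1.5-fold lower and 55.5% higher by any amount (median 0.059). The inhibitory list had 10 of 15 genes higher, 9 more than 1.5-fold, and 4 more than 1.5-fold lower (median 0.62). Lag3 stood at 229 CPM with anti-PD-1, in 23 cells, and 48.9 CPM with isotype antibody, in 11 cells (2.23, 1.56 to 2.98). Tigit stood at 287 CPM with anti-PD-1 and 103 CPM with isotype antibody, in 31 anti-PD-1 cells and 18 isotype cells (1.48, 1.00 to 2.00), and Pdcd1 at 456 CPM with anti-PD-1 and 301 CPM with isotype antibody, in 29 anti-PD-1 cells and 25 isotype cells (0.60, 0.30 to 0.91). These 3 receptors were thus found in most dividing CD4 cells of the anti-PD-1 library, and Pdcd1 and Tigit also in most of the isotype library. The CD4 members were deeper with anti-PD-1, at a median of 17881 UMIs, than with isotype antibody, at 13402 UMIs.

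The cytotoxic list in conventional CD4 cells had 12 of 17 genes higher, 9 of them more than 1.5-fold, and 3 more than 1.5-fold lower (median 0.78). Gzmk stood at 393 CPM in 17 cells with anti-PD-1 and 122 CPM in 5 cells with isotype antibody (1.685), and Gzmb at 313 CPM in 13 cells with anti-PD-1 and 134 CPM in 7 cells with isotype antibody. A single cell held 107 of the 224 anti-PD-1 Gzmb UMIs, and another held 29 of the 55 isotype Gzmb UMIs. Xcl1 went the other way, at 50.3 CPM with anti-PD-1 and 511 CPM with isotype antibody (−3.34), with 31 of its 36 anti-PD-1 UMIs in 1 cell. Cd40lg stood at 25.2 CPM in 11 cells with anti-PD-1 and 151 CPM in 20 cells with isotype antibody (−2.59, −3.44 to −1.81). All 20 nucleotide genes were higher (median 0.48), and 1 of 14 homing genes was (median −0.31). Without the mixed members, 30 anti-PD-1 cells and 26 isotype cells were left and the cytotoxic median was 0.47, the inhibitory median 0.48 and the nucleotide median 0.50. Lag3 then stood at 250 CPM with anti-PD-1 and 56.5 CPM with isotype antibody and the Gzmk ratio was 1.503.

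Within CD8 cells (56 with anti-PD-1 and 13 with isotype antibody, a comparison added after the values were seen), killing genes were higher with anti-PD-1, and the intervals of Lag3 and Tigit included 0, while that of Pdcd1 included 0 only with the mixed members kept. Of 7911 measured genes, 23.5% were more than 1.5-fold higher, 12.5% more than 1.5-fold lower and 57.1% higher by any amount (median 0.103). The cytotoxic list had 13 of 17 genes higher, 8 more than 1.5-fold, and 1 more than 1.5-fold lower (median 0.53). Gzma stood at 2150 CPM in 36 cells with anti-PD-1 and 642 CPM in 6 cells with isotype antibody (1.75, 1.53 to 1.97), and Gzmb at 2540 CPM in 51 cells with anti-PD-1 and 931 CPM in 9 cells with isotype antibody (1.45, 1.27 to 1.64). Prf1, the pore protein that lets granzymes enter target cells, stood at 137 CPM with anti-PD-1 and 49.4 CPM with isotype antibody (1.48, 0.68 to 2.38). The granzyme and perforin genes were therefore higher in anti-PD-1 CD8 cells on RNA summed over cells, but the isotype value rested on few cells. Pdcd1 stood at 299 CPM with anti-PD-1 and 257 CPM with isotype antibody (0.22, −0.16 to 0.60), Lag3 at 101 CPM with anti-PD-1 and 116 CPM with isotype antibody (−0.21, −0.79 to 0.40) and Tigit at 149 CPM with anti-PD-1 and 166 CPM with isotype antibody (−0.15, −0.63 to 0.35). Without the mixed members (54 anti-PD-1 cells and 12 isotype cells) the inhibitory median of 0.26 was 0.40 and Pdcd1 stood at 306 CPM with anti-PD-1 and 206 CPM with isotype antibody (0.57, 0.15 to 1.02). Xcl1 lay on the other side of 0 here than over all members, at 730 CPM with anti-PD-1 and 381 CPM with isotype antibody (0.94, 0.65 to 1.24), with 375 of its 755 anti-PD-1 UMIs in 1 cell. Ccr7, the lymph node homing receptor, stood at 232 CPM in 18 cells with anti-PD-1 and 610 CPM in 6 cells with isotype antibody (−1.39). Of its 173 isotype UMIs, 53 lay in 1 cell. The homing list went the other way, with 10 of 12 genes higher with anti-PD-1 (median 0.50), beside 57.1% of all genes. Of 10 naive and memory genes, 6 were higher (median 0.36), which is near that share. Of these 10 genes, 4 were more than 1.5-fold higher and 3 more than 1.5-fold lower. Nucleotide genes were higher in 8 of 20 in CD8 cells (median −0.14), unlike the 20 of 20 in conventional CD4 cells. Whether CD4 and CD8 cells differ in these responses was not tested, since each lineage and group is 1 library.

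**Figure D5:**
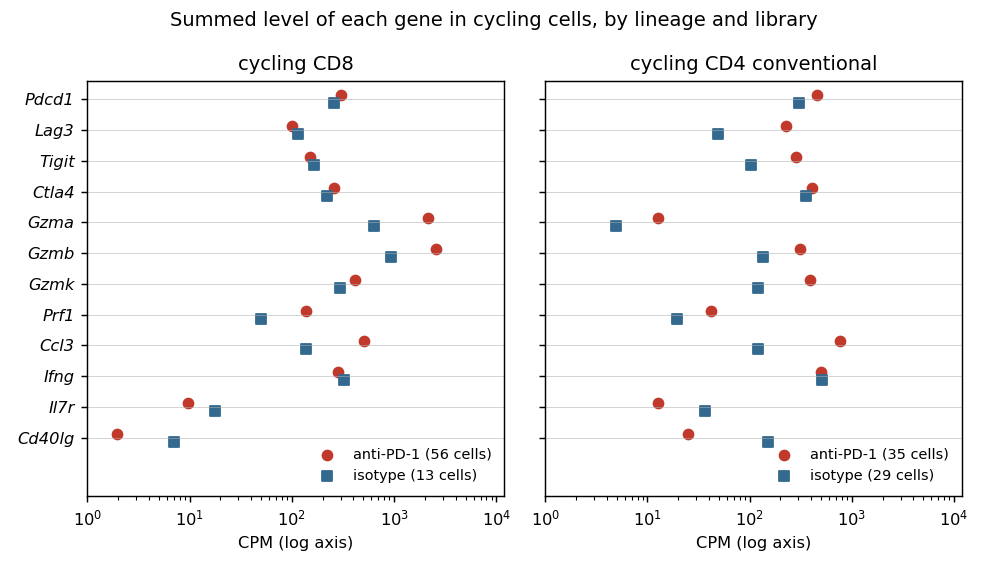
CPM (log axis) of 12 receptor, granzyme, cytokine and helper genes, summed over cycling CD8 cells (left, 56 anti-PD-1 and 13 isotype cells) and cycling conventional CD4 cells (right, 35 anti-PD-1 and 29 isotype cells), with anti-PD-1 as red circles and isotype antibody as blue squares. Lag3 lies at 229 CPM with anti-PD-1 and 48.9 CPM with isotype antibody in CD4 cells and at 101 CPM with anti-PD-1 and 116 CPM with isotype antibody in CD8 cells, while Gzmb lies higher with anti-PD-1 in both, at 313 CPM with anti-PD-1 and 134 CPM with isotype antibody and at 2540 CPM with anti-PD-1 and 931 CPM with isotype antibody.

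By size alone, most of the genes highest in the anti-PD-1 members were genes of antigen-presenting and myeloid cells. The 10 highest, ranked by the interval bound nearest to 0, were H2-Aa, H2-Eb1, Ifitm1, Cxcl3, Cst3, Ifitm3, H2-Ab1, Ccl3, Il1b and Cd8b1. H2-Aa, an MHC class II chain, stood at 272 CPM with anti-PD-1 and 30 CPM with isotype antibody, with 265 of its 667 anti-PD-1 UMIs in 1 cell. Without the 10 anti-PD-1 and 5 isotype mixed members its log2 ratio of 3.18 was 0.18, and H2-Eb1, H2-Ab1, Cxcl3 and Il1b turned to −0.90, −1.43, −4.14 and −2.11. Ifitm3 had a log2 ratio of 2.098 with all members and 0.071 without the mixed ones, and Cst3 of 1.89 and 0.50. Cd8b1 (chr6:71322788-71337494), the beta chain of the CD8 coreceptor, stood at 405 CPM with anti-PD-1 and 125 CPM with isotype antibody (1.70). Its ratio was 1.80 without the mixed members. Ccl3, a chemokine of activated T cells, stood at 496 CPM with anti-PD-1 and 148 CPM with isotype antibody (1.74). Its ratio was 1.96 without the mixed members, but 259 of its 1216 anti-PD-1 UMIs lay in 1 cell. Chosen in the same way without the mixed members, the highest genes also held Cd8a (295 CPM with anti-PD-1 and 138 CPM with isotype antibody), Lgals3, a galectin (320 CPM with anti-PD-1 and 122 CPM with isotype antibody), and Asns, the asparagine synthetase (69.7 CPM with anti-PD-1 and 21.0 CPM with isotype antibody).

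The 10 lowest genes with all members were Gzmc, Cd40lg, Gadd45g, Tnfsf11, Hspa1b, Tnfsf9, Klrg1, Tyrobp, Ifit1 and Fcer1g. Tnfsf11, the cytokine RANKL, stood at 48.1 CPM with anti-PD-1 and 140 CPM with isotype antibody, and Tnfsf9, the ligand of 4-1BB, at 27.3 CPM with anti-PD-1 and 80.3 CPM with isotype antibody. Together with Cd40lg these are 3 ligands of the TNF family that T cells display to other cells. Gadd45g, a stress and T cell activation gene, stood at 40.3 CPM with anti-PD-1 and 121 CPM with isotype antibody. Tyrobp and Fcer1g, signalling adaptors of NK and myeloid cells, stood at 125 CPM with anti-PD-1 and 264 CPM with isotype antibody and at 113 CPM with anti-PD-1 and 233 CPM with isotype antibody. The 3 ligands and Gadd45g kept ratios of −1.45 (Tnfsf11), −1.46 (Tnfsf9), −2.51 (Cd40lg) and −1.53 (Gadd45g) without the mixed members. Tyrobp had a ratio of −1.08 with all members and −2.04 without the mixed ones, and Hspa1b, a heat shock protein, of −1.42 and −1.99.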

How the data were processed

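Single-cell RNA was measured in 2 libraries, 1 per group. The authors deposited unnormalized UMI counts of 32285 genes for every barcode; Cell Ranger 5.0.1 is named per the file headers and Cell Ranger 2.1.1 with build mm10 per the submitters' processing notes. Members were found by the stated rule, lineages from genes named in the text, and UMIs were summed over cells and divided by the class total. The members and the 34 gene lists (472 genes) were chosen with earlier results of these data known. Shares have exact Clopper-Pearson intervals and differences of shares Newcombe intervals. Ratios have exact conditional binomial intervals, and a gene needed 10 UMIs. The ratio calculation was checked on simulated counts drawn independently for each gene. Those counts lack the gathering of a gene's UMIs in single cells, so the check does not cover it. No test was possible with 1 library per group, and the precision is set by the depth of 2453637 UMIs in anti-PD-1 members and 1233072 in isotype members. A list of other types' markers flagged mixed members. Doublets were scored but not removed from the main values, and removal of scores above 0.25 was run as an alternative.

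Genes were named by rule: the 10 highest and 10 lowest by the interval bound nearest to 0, with at least 30 UMIs over both libraries and 50 CPM in the higher one, without mitochondrial, ribosomal protein, haemoglobin, Y-linked and X-inactivation, immunoglobulin, T cell receptor and unnamed genes and genes of the member rule; list genes may be named too. Positions are from GENCODE vM21 (GRCm38, the same assembly as mm10). Values were computed with scanpy 1.11.5, anndata 0.12.19, scipy 1.17.1, numpy 2.4.6, pandas 2.3.3 and matplotlib 3.10.9 in Python 3.11.15 and, under R 4.3.3, with edgeR 4.0.16 for the scaling factors of an alternative only.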

Additional observations from a re-analysis of the deposited data

How the results depend on the processing

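No paired analysis was possible because each group is 1 library. The CD8 share of members, higher by 27.1 points with anti-PD-1, stayed between 21.8 and 35.0 points under every alternative run. The share of members did not hold its size when each cell was thinned to 2000 UMIs before the rule: it was 0.465% with anti-PD-1 and 0.394% with isotype antibody of kept barcodes, a difference of 0.0709 points, and 6.30% and 5.65% of T and NK cells, a difference of 0.651 points. The cytotoxic median was 0.43 as a mean over cells and 0.53 within CD8 members. The naive and memory median was −0.44 after thinning and 0.36 within CD8 members. Of the single genes, 5 turned direction: H2-Eb1 (−0.90), Cxcl3 (−4.14) and H2-Ab1 (−1.43) without the mixed members, Il1b without them (−2.11) and without high doublet scores (−0.067), and Mthfd2 after thinning (−0.55). The other 58 values of shares and list medians, and 510 gene values, moved by less than their counting interval, and 94 gene values moved by more. The cause was not tested. Within-CD8 values and those without mixed members were chosen after seeing the data. Few cells limit precision: 13 isotype CD8 members set the width of every CD8 value.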
